A study of Mus musculus with 2 samples.

Results

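Platelet-derived growth factor (PDGF) signaling was examined through its 7 genes, the ligands Pdgfa, Pdgfb, Pdgfc and Pdgfd, the receptors Pdgfra and Pdgfrb, and the receptor-like gene Pdgfrl, which are 7 of the 32285 genes counted. The members were taken by symbol, with earlier results of these data known. All 7 had at least 1 UMI (a unique molecular identifier, which marks 1 captured transcript) in each of the 2 libraries. PDGF ligands are secreted dimers that pair and activate 2 receptor tyrosine kinases on neighboring cells. PDGF-A and PDGF-C act mainly through PDGFRα, which marks fibroblasts, whereas PDGF-B also binds PDGFRβ, and PDGF-B from sprouting endothelium recruits the PDGFRβ-bearing pericytes that wrap new vessels. PDGF-C and PDGF-D are released in a latent form and need proteolytic cleavage, while the longer forms of PDGF-A and PDGF-B are held near the secreting cell by a basic retention motif.

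The question was how this system is laid out among the cells of a tumor, and whether its transcripts differed when pericytes lost soluble guanylate cyclase (sGC), the receptor of nitric oxide. Lewis lung carcinoma (LLC), a mouse lung cancer line, was grown under the skin of C57BL/6 mice, and single cells were sequenced with 10x Genomics 3′ chemistry, named v3.1 in the labels and v3 in the methods of the study. In the sGC Ctr library (labelled CT) the mice were Gucy1b1 flox/flox, without Cre. In the sGC ∆PC library (labelled KO) they were Cspg4-CreERT2 with Gucy1b1 flox/flox, so that tamoxifen deletes the β1 subunit of sGC in cells that use the Cspg4 promoter. Tamoxifen was given to both genotypes as 5 doses when the mice were 4 weeks old, LLC cells followed at 8 weeks, and the tumors were taken 2 weeks after that. Each library pooled 3 tumors, so tumors within a condition could not be compared, library and genotype cannot be told apart, and no test between them was possible. Every 95% interval given here covers counting error only.

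The median barcode had 23337 UMIs among the 15007 of sGC Ctr and 8019 among the 25631 of sGC ∆PC, and 131 cell barcodes occurred in both. Cells were placed in a class by summed UMIs of marker genes, none of them a member, and were used only if the markers of every other class stayed low. This left 8965 (73.4%) of 12220 cells of adequate quality in sGC Ctr and 13381 (59.5%) of 22498 in sGC ∆PC. The endothelial cell (EC) gate held 52 and 48 cells, the pericyte gate 31 and 29, the fibroblast gate 118 and 221, the cancer gate 6578 and 10188, and the macrophage gate 1927 and 2611 (sGC Ctr first). Such gates cut a range of marker levels and are not cell types: less than 25% above the threshold lay 0 and 0 EC-gated cells, 0 and 1 pericyte-gated cells, 3 and 26 fibroblast-gated cells, 528 and 657 cancer-gated cells and 63 and 159 macrophage-gated cells. Median depth differed between the libraries, being 23842.5 and 18754 UMIs in the EC gate, 10813 and 7452 in the pericyte gate, 20987.5 and 2189 in the fibroblast gate, 52154 and 15615 in the cancer gate, and 11629 and 5461 in the macrophage gate. The pericyte gate also carried smooth muscle transcripts (Myh11, Cnn1, Actg2, Acta2, Tagln) at a summed 5619 and 4641 CPM (UMIs per 1000000 UMIs of the class), so mural cells of both kinds can be among them.

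The deleted gene checked the labels. Gucy1b1 had 52 UMIs in the pericyte gate of sGC Ctr and 11 in that of sGC ∆PC, or 136 and 46.6 CPM, a log2 ratio of -1.55 (95% interval -2.64 to -0.59). The transcripts of the Cre driver, Cspg4, were not restricted to pericytes, as macrophage-gated cells held 1326 and 684 UMIs of it, or 54.9 and 32.1 CPM, against 162 and 84.8 CPM in the pericyte gate.

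The members divided among the classes in a pattern that both libraries shared. Pdgfb was highest in ECs and then macrophages, Pdgfa in pericytes and then macrophages, Pdgfd in ECs, Pdgfra and Pdgfrl in fibroblasts, and Pdgfrb in pericytes and then fibroblasts. Pdgfc was low everywhere, with no class above 22.4 CPM. Levels are 3′ UMI counts, in which 1 transcript gives 1 UMI whatever its length, so they were not divided by length.

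**Figure D1:**
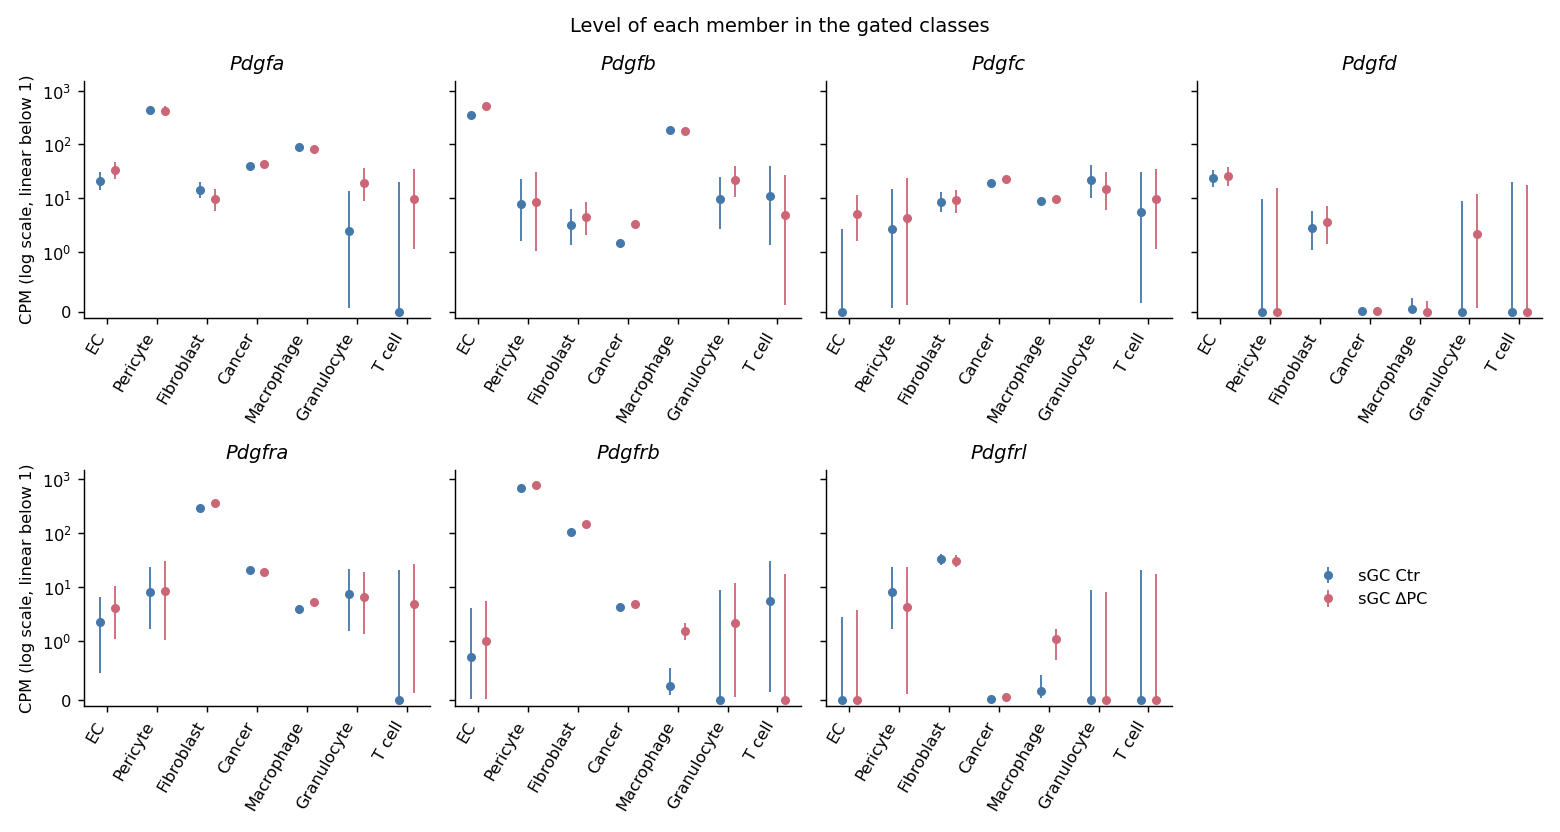
Level of each member (CPM, log scale that is linear below 1) in 7 gated classes of the sGC Ctr library (blue) and the sGC ∆PC library (red), with exact Poisson 95% intervals for counting error. Pdgfb stands at 355 and 508 CPM in the EC gate, Pdgfrb at 700 and 771 CPM in the pericyte gate and Pdgfra at 297 and 362 CPM in the fibroblast gate, while wide intervals mark classes with few UMIs.

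Pdgfb (ENSMUSG00000000489, chr15:79995874-80014977 of mm10, minus strand), the ligand that recruits pericytes, was the member that ECs carried most of. It had 485 UMIs in 47 of the 52 EC-gated cells of sGC Ctr, or 355 CPM (324 to 388), and 511 UMIs in 39 of 48 cells of sGC ∆PC, or 508 CPM (465 to 554). Single cells ranged from 0 to 815 CPM around a median of 291 in sGC Ctr, and from 0 to 1223 CPM around a median of 310 in sGC ∆PC. The summed level was therefore higher in the sGC ∆PC library, with a log2 ratio of 0.52 (0.34 to 0.70), while the cells of both libraries overlapped over most of their range and their medians differed little. The study itself reported lower Pdgfb mRNA in ECs of sGC ∆PC tumors, over cells that it had assigned by clusters. Of the alternative settings used here, only the Leiden cluster gave that direction, as given below.

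The Pdgfb ratio in ECs was recomputed without single cells and by depth. One sGC ∆PC cell gave 88 of the 511 UMIs (17.2%), and without the cell of most Pdgfb UMIs in each library the ratio was 0.41 (0.21 to 0.60). It was 0.64 (0.19 to 1.08) in ECs below the median depth of 21779.5 UMIs and 0.48 (0.28 to 0.68) at or above it. With each cell thinned to 2000 UMIs it was 0.07 (-0.72 to 0.86), on 31 and 28 UMIs, an interval that also holds the unthinned ratio. The share of ECs with a Pdgfb UMI was 90.4% (exact binomial interval 79.0 to 96.8) and 81.2% (67.4 to 91.0) before thinning, and 50.0% (35.5 to 64.5) and 44.2% (29.1 to 60.1) after it. Thinning left out cells under 2000 UMIs, 2 and 5 ECs, 0 and 10 pericytes, 6 and 101 fibroblasts, 67 and 353 cancer cells, 18 and 756 macrophages, and 99 and 110 granulocytes. Granulocytes, taken as cells that should lack the members, had Pdgfb in shares of 2.06% and 4.02% at median depths of 1995.5 and 2064 UMIs, and 1.05% and 2.63% after thinning.

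Pdgfb past the EC gate was lower in droplets with more cancer-cell RNA. Droplets past the EC gate with fewer than 3 cancer-marker UMIs per 10000 (Krt18, Krt8, Rhox5, Hmga2), 57 and 52 droplets, had 354 CPM in sGC Ctr and 476 CPM in sGC ∆PC, and those past the cancer gate as well had 118 CPM in 6 droplets and 73.8 CPM in 28. Such double droplets made up more of the sGC ∆PC library. When the droplets with markers of other classes were kept, the ratio was 0.25 (0.09 to 0.41), and over the Leiden cluster that held the ECs, 86 and 285 cells, it was -0.92 (-1.08 to -0.77). That cluster was mixed, as 100 of its 175 gated cells were EC-gated. A scale that does not count the other RNA of a droplet is the level per UMI of the EC markers. Over all droplets past the EC gate its log2 ratio was 0.57 (0.41 to 0.73), and in the gated cells 0.69 (0.51 to 0.87). The median level of these markers in the gated cells was itself lower in sGC ∆PC, at 59.3 against 72.6 UMIs per 10000.

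Within the EC gate, Pdgfb went with genes of tip cells, the leading cells of a sprout (Apln, Esm1, Angpt2, Cxcr4, Nid2). In sGC Ctr the 25% of ECs lowest for this list had 234 CPM and the highest 25% had 419 CPM, a log2 difference of 0.84 (0.38 to 1.32) over 13 cells each. In sGC ∆PC the values were 273 and 679 CPM, or 1.31 (0.89 to 1.76) over 12 cells each. The highest 25% were deeper, at medians of 33813 and 32645 UMIs against 13383 and 16836.5, and the part of depth was not tested.

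Macrophages were the other large source of Pdgfb, and by number the main one. Macrophage-gated cells had 4457 UMIs in sGC Ctr, or 185 CPM (179 to 190), and 3835 in sGC ∆PC, or 180 CPM (174 to 186), a log2 ratio of -0.04 (-0.10 to 0.02). They gave 57.4% and 47.2% of all Pdgfb UMIs in the kept cells, with 5.07% and 5.18% of all UMIs, against 6.25% and 6.29% from ECs. The ratio near 0 joined 2 opposite ones: in macrophages below the median depth of 9739 UMIs Pdgfb stood at 215 CPM in sGC Ctr and 126 CPM in sGC ∆PC, a ratio of -0.77 (-0.92 to -0.63), and at or above it at 178 and 198 CPM, a ratio of 0.15 (0.08 to 0.22). Shallow cells made up 1640 of 2611 sGC ∆PC macrophages and 629 of 1927 in sGC Ctr.

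In cancer cells Pdgfb was scarce, found in 7.10% and 7.69% of cells (sGC Ctr first) at median depths of 52154 and 15615 UMIs. After thinning it was found in 0.31% and 0.87%. The level was 1.48 CPM in sGC Ctr and 3.29 CPM in sGC ∆PC, a log2 ratio of 1.15 (1.00 to 1.3). Among members with at least 50 UMIs in a class, no other ratio passed 2-fold. Of the genes with at least 50 UMIs in the cancer gate 3.75% passed 2-fold, and 545 of those 564 were higher in sGC ∆PC. Of the members 1 of the 5 that could be counted did so in cancer cells, 0 of 3 in ECs (background 1.42% of genes), 0 of 2 in pericytes (2.68%), 0 of 4 in fibroblasts (2.08%) and 0 of 4 in macrophages (1.38%). Both cancer-gate CPM values lie below the 9.62 and 21.5 CPM of granulocytes, which rest on 4 and 10 UMIs. Granulocytes were far shallower, at medians of 1995.5 and 2064 UMIs, so the classes are compared at unlike depth. Their shares with a Pdgfb UMI before thinning, 2.06% and 4.02%, were below those of cancer cells. Macrophage markers in the cancer gate moved with Pdgfb, at a summed 0.686 and 1.297 UMIs per 10000. In cancer cells with no macrophage-marker UMI, 590 and 1893 cells, Pdgfb stood at 0.98 and 3.47 CPM (19 and 76 UMIs) at median depths of 33239.5 and 8381 UMIs, a log2 ratio of 1.82 (1.08 to 2.63). The 25% of cancer cells highest for macrophage markers had 2.81 and 9.51 CPM, against 1.03 and 1.87 CPM in the lowest 25%. The part of macrophage RNA in the Pdgfb of the cancer gate was not tested.

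**Figure D2:**
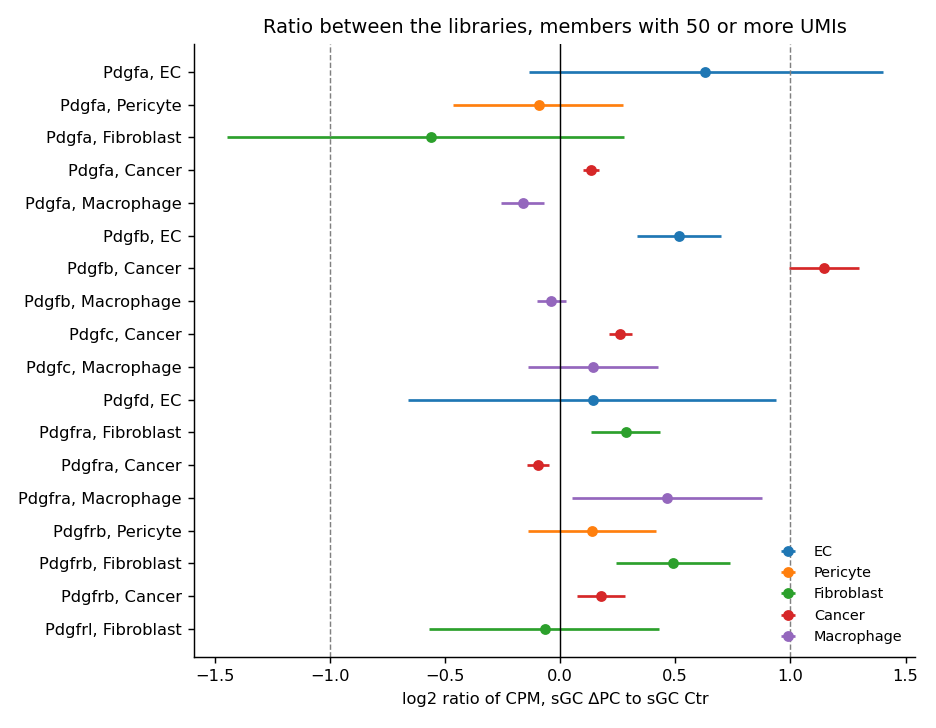
Log2 ratio of CPM, sGC ∆PC to sGC Ctr, for each member with at least 50 UMIs in a class, with exact conditional 95% intervals for counting error. Dashed lines mark 2-fold, which Pdgfb in cancer cells passes at 1.15, and the intervals of Pdgfa and Pdgfrb in pericytes include 0.

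Pdgfa (ENSMUSG00000025856, chr5:138976014-138997370, minus strand), a ligand of PDGFRα, had its highest level in pericytes. These few cells gave 0.857% and 0.528% of all Pdgfa UMIs of the kept cells. The pericyte gate held 169 UMIs in 28 of 31 cells of sGC Ctr, or 443 CPM (379 to 515), and 98 UMIs in 18 of 29 cells of sGC ∆PC, or 415 CPM (337 to 506). The summed levels gave a log2 ratio of -0.09 (-0.47 to 0.27), which includes 0. The median pericyte had 348 CPM in sGC Ctr and 121 CPM in sGC ∆PC, although the highest cells, at 997 and 986 CPM, were close.

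The Pdgfa level was also compared by depth, with intervals that include 0 in both parts. At or above the median depth of 9744 UMIs the level was 490 CPM in 19 cells and 516 CPM in 11, a ratio of 0.07 (-0.32 to 0.47). Below it the level was 275 CPM in 12 cells and 153 CPM in 18, a ratio of -0.85 (-2.08 to 0.28) on 23 and 10 UMIs. With every cell counted equally the log2 ratio was -0.57, and thinned to 2000 UMIs, with 38 and 11 UMIs left, it was -1.08 (-2.20 to -0.08). The share of pericytes with Pdgfa was 71.0% (52.0 to 85.8) and 31.6% (12.6 to 56.6) after thinning, 90.3% and 62.1% before it, against 1.05% and 3.51% of thinned granulocytes.

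Pericyte droplets with cancer RNA carried less Pdgfa and were mostly in the sGC ∆PC library. Among droplets past the pericyte gate 6 of 43 in sGC Ctr and 34 of 74 in sGC ∆PC were set aside because cancer markers were present. With every droplet of the gate counted, the log2 ratio became -0.68 (-0.99 to -0.38), whereas per pericyte-marker UMI over the same droplets it was -0.12 (-0.42 to 0.18).

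**Figure D3:**
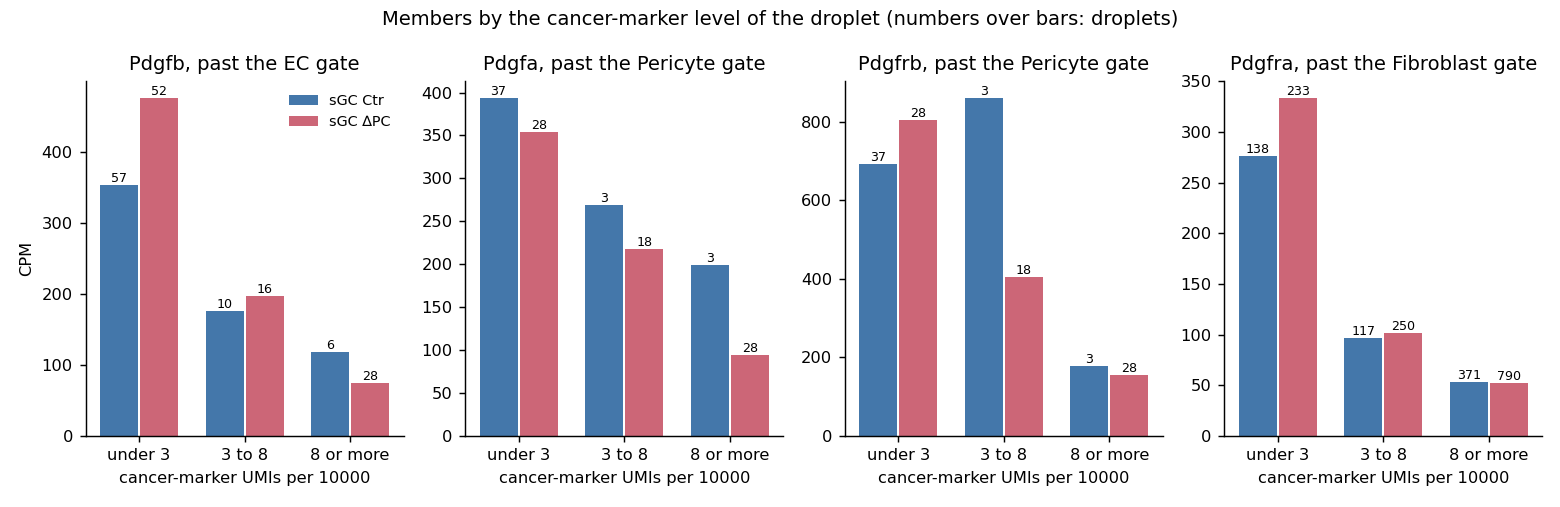
CPM of Pdgfb past the EC gate, of Pdgfa and Pdgfrb past the pericyte gate and of Pdgfra past the fibroblast gate, by the cancer-marker UMIs per 10000 of the droplet, in sGC Ctr (blue) and sGC ∆PC (red), with the number of droplets over each bar. Each member is lower in the rightmost than in the leftmost bars in both libraries, as Pdgfra does from 276 and 334 CPM to 53.0 and 51.8 CPM.

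Macrophages and cancer cells carried Pdgfa at lower levels. In the macrophage gate it stood at 90.7 CPM (2189 UMIs) and 81.0 CPM (1728 UMIs), a log2 ratio of -0.16 (-0.25 to -0.07), and the ratio was -0.03 (-0.13 to 0.08) in the deeper macrophages and -0.67 (-0.88 to -0.46) in the shallower ones. In the cancer gate it stood at 38.9 CPM (14664 UMIs) and 42.7 CPM (12810 UMIs), a log2 ratio of 0.14 (0.10 to 0.17). By sheer number of cells, cancer cells gave 74.4% and 69.0% of all Pdgfa UMIs, slightly under their 79.2% and 72.8% of all UMIs. Pdgfa was present in 70.6% and 48.4% of cancer cells, or 7.13% and 7.89% after thinning.

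Pdgfa in cancer cells went with hypoxia genes and with cell cycle genes. From the lowest to the highest 25% of cells for a hypoxia list (Slc2a1, Bnip3, Ndrg1, Pdk1, Ankrd37, Egln3, Car9) it stood at 36.8 and 44.8 CPM in sGC Ctr, and at 40.5 and 49.6 CPM in sGC ∆PC, log2 differences of 0.28 (0.22 to 0.35) and 0.29 (0.22 to 0.37). For the cell cycle list (Mki67, Top2a, Cdk1, Ccnb1, Birc5) the differences were 0.37 (0.30 to 0.44) and 0.18 (0.11 to 0.25). Fibroblast markers were lower in the cells highest for the cell cycle list, at 9.24 against 16.9 UMIs per 10000 in sGC Ctr and 11.4 against 17.8 in sGC ∆PC, and median depth was higher, at 72541 against 41459.5 and 17894 against 13477 UMIs. Their part in the Pdgfa differences was not tested.

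ECs and fibroblasts held little Pdgfa, at 21.2 and 32.8 CPM (29 and 33 UMIs) and at 14.1 and 9.58 CPM (36 and 19 UMIs). The intervals of their log2 ratios, -0.14 to 1.40 and -1.45 to 0.28, include 0. Granulocytes stood at 2.40 CPM (0.061 to 13.4) and 19.3 CPM (8.85 to 36.7), below the EC interval of 14.2 to 30.5 CPM in sGC Ctr and overlapping that of 22.6 to 46.1 CPM in sGC ∆PC.

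Pdgfc (ENSMUSG00000028019, chr3:81036416-81214040, plus strand), a latent ligand of PDGFRα, had most of its UMIs in cancer cells. These held 7062 and 6734 UMIs, or 18.7 and 22.4 CPM, a log2 ratio of 0.26 (0.21 to 0.31). They gave 85.1% and 78.5% of all Pdgfc UMIs, little more than their 79.2% and 72.8% of all UMIs. After thinning 3.52% and 4.61% of cancer cells had a Pdgfc UMI, against 3.16% and 1.75% of granulocytes. The granulocyte intervals of 9.89 to 41.1 and 6.05 to 31.0 CPM, on 9 and 7 UMIs, hold the cancer-gate levels. Granulocytes were thus too few and shallow to set the classes apart. The EC gate lay below the cancer gate, with 0 UMIs in sGC Ctr, which allows up to 2.20 CPM. In sGC ∆PC it had 5 UMIs, or 4.97 CPM (1.61 to 11.6). The part of free RNA in the Pdgfc of cancer cells was not tested.

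Macrophages held Pdgfc at 8.86 CPM (214 UMIs) and 9.80 CPM (209 UMIs), a log2 ratio of 0.14 (-0.14 to 0.43), and these UMIs were spread unevenly. In the 25% of sGC Ctr macrophages lowest for resident-like genes (Mrc1, Folr2, Cd163, Lyve1, Cbr2) there were 12 UMIs, or 2.41 CPM, and in the highest 25% there were 130 UMIs, or 18.8 CPM, a log2 difference of 2.97 (2.11 to 3.96) over 481 cells each. In sGC ∆PC the values were 9.39 and 16.3 CPM (19 and 110 UMIs), a difference of 0.79 (0.08 to 1.58) over 652 cells each. The lowest 25% in sGC ∆PC were shallow, at a median of 1693 UMIs against 8935 in the highest, and 719 sGC ∆PC macrophages had no UMI of the list, so that its lowest 25% were drawn from these in file order.

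Pdgfb went the other way from Pdgfc along the resident-like list in sGC Ctr, with 193 CPM in the lowest 25% and 128 CPM in the highest, a difference of -0.60 (-0.73 to -0.46). In sGC ∆PC it stood at 131 and 149 CPM, a difference of 0.19 (-0.01 to 0.39). Lipid-associated genes (Trem2, Spp1, Gpnmb, Fabp5, Lpl) went with Pdgfa, which stood at 75.4 and 104 CPM in sGC Ctr and 78.4 and 92.4 CPM in sGC ∆PC, and not with Pdgfb, whose differences of -0.05 and 0.02 have intervals that include 0.

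**Figure D4:**
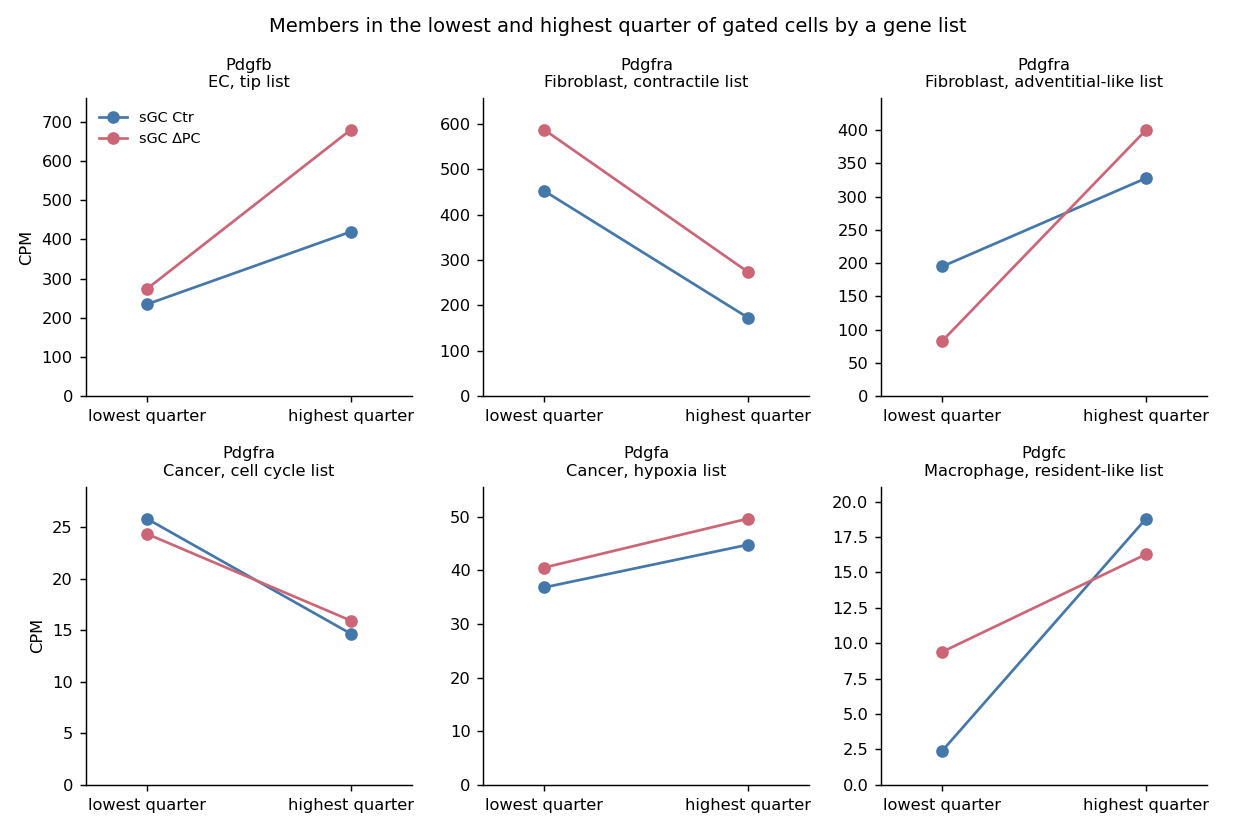
CPM of a member in the lowest and the highest 25% of gated cells by the summed level of a gene list, in sGC Ctr (blue) and sGC ∆PC (red). Pdgfb goes up with tip-cell genes in ECs (234 to 419 and 273 to 679 CPM), Pdgfra goes down with contractile genes in fibroblasts and with cell cycle genes in cancer cells, and Pdgfc goes up with resident-like genes in macrophages.

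Pdgfd (ENSMUSG00000032006, chr9:6168584-6378850, plus strand), a latent ligand of PDGFRβ, was the rarest ligand and an EC transcript. ECs held 32 UMIs in 19 of 52 cells of sGC Ctr, or 23.4 CPM (16.0 to 33.1), and 26 UMIs in 15 of 48 cells of sGC ∆PC, or 25.9 CPM (16.9 to 37.9), a log2 ratio of 0.14 (-0.66 to 0.94). These were 55.2% and 45.6% of all 58 and 57 Pdgfd UMIs of the kept cells. Of the ECs with a Pdgfd UMI, 19 of 19 and 15 of 15 also had Pdgfb, which most ECs had, and after thinning 2 of 5 and 1 of 2 did. Pericytes had 0 UMIs of Pdgfd in both libraries, which allows up to 7.86 and 12.7 CPM, and fibroblasts had 7 UMIs in each, or 2.75 and 3.53 CPM. Along the tip-cell list Pdgfd in sGC ∆PC stood at 55.7 CPM in the lowest and 22.6 CPM in the highest 25% (11 and 10 UMIs), a difference of -1.3 (-2.70 to 0.07).

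Pdgfra (ENSMUSG00000029231, chr5:75152292-75198215, plus strand), the receptor of PDGF-A and PDGF-C, marked the fibroblast gate. It had 756 UMIs in 101 of 118 cells of sGC Ctr, or 297 CPM (276 to 319), and 718 UMIs in 91 of 221 cells of sGC ∆PC, or 362 CPM (336 to 390). The log2 ratio of the summed levels was 0.29 (0.14 to 0.43). Single cells ranged from 0 to 1973 CPM around a median of 216 in sGC Ctr, and from 0 to 2232 CPM around a median of 0 in sGC ∆PC, where the median fibroblast had only 2189 UMIs in all. Shares of fibroblasts with Pdgfra were 85.6% (77.9 to 91.4) and 41.2% (34.6 to 48.0) before thinning and 44.6% (35.2 to 54.3) and 37.5% (28.8 to 46.8) after it. Thinned granulocytes had Pdgfra in 0 of 95 cells (upper limit 3.81%) and 1.75%.

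The direction of the Pdgfra ratio in fibroblasts was not stable. It was 0.40 (0.25 to 0.56) at or above 9249 UMIs, where 106 and 64 cells lay, but -0.12 (-0.63 to 0.38) after thinning, -0.44 with every cell counted equally, 0.03 (-0.06 to 0.12) with all droplets past the gate, and -0.69 over the Leiden cluster of the fibroblasts, in which the libraries had 186 and 945 cells. Pdgfrb in the same fibroblasts was at 0.51, 0.21, 0.58, 0.31 and -0.71 in these settings, in the same order. The Leiden cluster was mixed, as 296 of its 461 gated cells were fibroblast-gated.

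Pdgfra differed between fibroblasts low and high for lists of other genes. In the 25% of fibroblasts highest for contractile genes (Acta2, Tagln, Thbs4, Cnn1, Myl9) it stood at 172 CPM in sGC Ctr and 273 CPM in sGC ∆PC, against 452 and 587 CPM in the lowest 25%, differences of -1.39 (-1.71 to -1.08) and -1.10 (-1.40 to -0.81). With adventitial-like genes (Pi16, Dpp4, Cd34, Ly6c1, Ly6a) it went up, from 195 to 328 CPM in sGC Ctr and from 83.0 to 400 CPM in sGC ∆PC, differences of 0.75 (0.40 to 1.11) and 2.27 (1.21 to 3.60). The fibroblast markers of the gate moved with this list, from 348 to 708 UMIs per 10000 in sGC Ctr and from 215 to 528 in sGC ∆PC, where macrophage markers stood at 4.27 and 1.06, and their part in the difference was not tested. In sGC ∆PC 165 of 221 fibroblasts had no UMI of the contractile list and 89 none of the adventitial-like list, the lowest 55 cells were taken from these in file order, and their median depth was 1283 and 1162 UMIs. In sGC Ctr 70 and 8 of 118 fibroblasts had none, so that the lowest 29 cells for the contractile list were also taken in file order. From the lowest to the highest 25% for that list in sGC Ctr, fibroblast markers went from 594 to 452 UMIs per 10000. Median depth went from 18594 to 24761 UMIs, and the part of both in the Pdgfra difference was not tested.

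Cancer cells carried Pdgfra at 20.5 CPM (7724 UMIs) and 19.2 CPM (5748 UMIs), a log2 ratio of -0.10 (-0.15 to -0.05), and so held 70.0% and 64.8% of all its UMIs. It was lower in cycling cancer cells, at 25.8 CPM in the lowest and 14.7 CPM in the highest 25% in sGC Ctr and at 24.4 and 15.9 CPM in sGC ∆PC, differences of -0.82 (-0.91 to -0.72) and -0.61 (-0.71 to -0.51). Fibroblast markers went the same way between these cells, from 16.9 to 9.24 and from 17.8 to 11.4 UMIs per 10000. Pdgfra also went with fibroblast markers within the cancer gate: in the lowest 25%, at 3.68 and 4.81 fibroblast-marker UMIs per 10000, Pdgfra stood at 8.84 and 10.1 CPM, and in the highest, at 28.9 in both libraries, at 36.3 and 30.5 CPM. Pdgfa went against the same markers, from 46.6 to 31.5 CPM and from 50.1 to 38 CPM. The part of fibroblast RNA in the Pdgfra of the cancer gate was not tested.

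Pdgfrb (ENSMUSG00000024620, on chromosome 18), the receptor of PDGF-B, had its highest level in pericytes. The pericyte gate held 267 UMIs in 30 of 31 cells of sGC Ctr, or 700 CPM (618 to 789), and 182 UMIs in 21 of 29 cells of sGC ∆PC, or 771 CPM (663 to 892). Single cells ranged from 0 to 1468 CPM around a median of 696 in sGC Ctr and from 0 to 2418 CPM around a median of 608 in sGC ∆PC. The ranges overlapped up to 1468 CPM, while the lowest 25% of sGC ∆PC cells were at 0 and those of sGC Ctr reached 497 CPM. The interval of the log2 ratio of 0.14 (-0.14 to 0.42) includes 0. As a fold from sGC Ctr to sGC ∆PC it runs from 0.908 to 1.34, for counting error only. Some other choices of droplets gave ratios below this interval, as given below.

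The share of pericytes with Pdgfrb differed between libraries before thinning and hardly after it. It was 96.8% (83.3 to 99.9) and 72.4% (52.8 to 87.3) with all UMIs, but 74.2% (55.4 to 88.1) of 31 cells and 73.7% (48.8 to 90.9) of 19 cells after thinning, while thinned granulocytes had none in 95 and 114 cells. The ratio was 0.15 below and 0.14 at or above the median depth. As for Pdgfa, counting the droplets with markers of other classes brought it to -0.45 (-0.66 to -0.24), and per pericyte-marker UMI of the same droplets it was 0.11 (-0.10 to 0.33). With the limit on cancer markers at 0.5 times, which left 66 Pdgfrb UMIs in sGC ∆PC, it was -0.22 (-0.64 to 0.18).

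**Figure D5:**
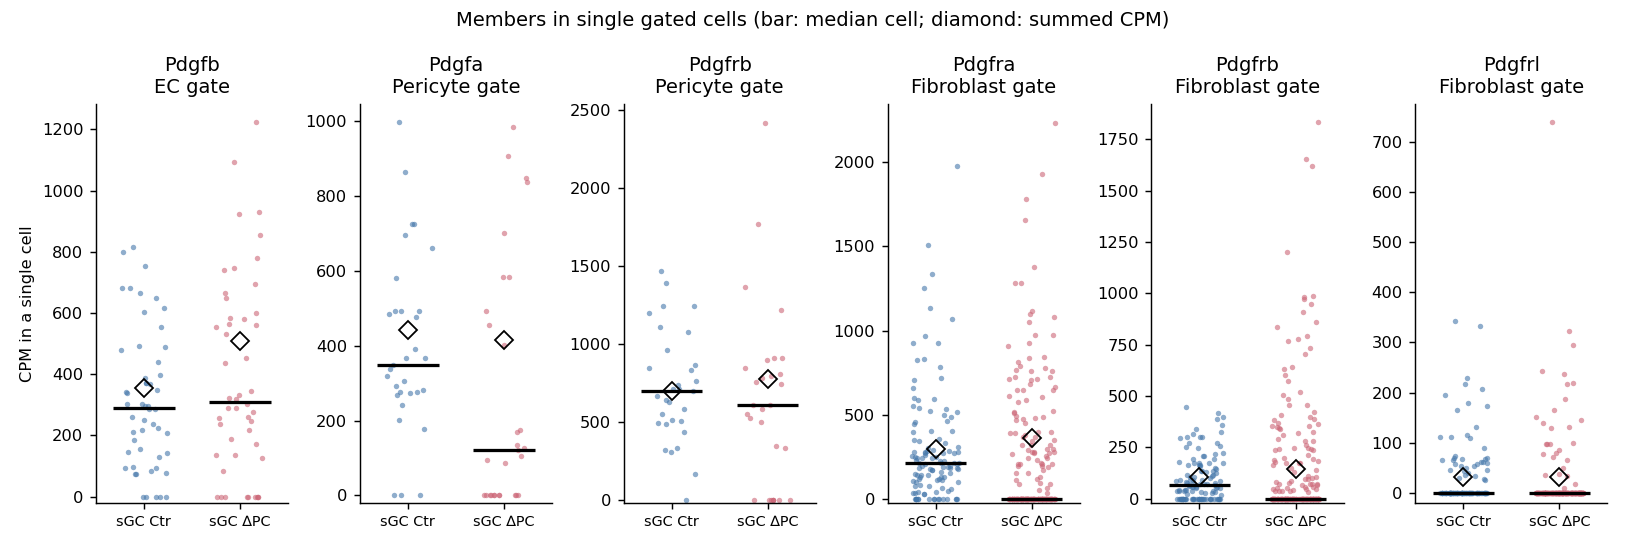
CPM of members in single cells of the EC, pericyte and fibroblast gates of sGC Ctr (blue) and sGC ∆PC (red). Bars mark the median cell and diamonds the summed CPM: both are close in sGC Ctr pericytes for Pdgfrb (696 and 700), and apart in sGC ∆PC pericytes for Pdgfa (121 and 415), where many cells lie at 0.

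Fibroblasts held Pdgfrb at a lower level, 104 CPM (264 UMIs in 82 cells) in sGC Ctr and 146 CPM (289 UMIs in 90 cells) in sGC ∆PC, a log2 ratio of 0.49 (0.24 to 0.74). The share of fibroblasts with a UMI, 69.5% and 40.7%, became 18.8% (12 to 27.2) and 20% (13.2 to 28.3) after thinning. Along the adventitial-like list the Pdgfrb differences in fibroblasts were -0.08 (-0.65 to 0.49) and -0.05 (-0.91 to 0.94). Along the contractile list they were 0.56 (0.05 to 1.09) in sGC Ctr and -0.62 (-1.11 to -0.12) in sGC ∆PC, opposite to Pdgfra in the first and in its direction in the second. Both receptors were found together in 77 of 118 and 63 of 221 fibroblasts, and in 12 of 112 and 11 of 120 after thinning, when Pdgfrb was in 24% and 24.4% of the cells with Pdgfra and in 14.5% and 17.3% of those without it.

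Elsewhere Pdgfrb was scarce. ECs had 1 UMI in each library, cancer cells 4.15 and 4.70 CPM (1567 and 1409 UMIs), which made 57.2% and 52.1% of all Pdgfrb UMIs, and in the 25% of cancer cells lowest and highest for fibroblast markers it stood at 1.45 and 7.46 CPM in sGC Ctr and at 2.31 and 7.44 CPM in sGC ∆PC. Macrophages had 6 and 32 UMIs, or 0.249 and 1.5 CPM, a log2 ratio of 2.59 (1.32 to 4.14). Fibroblast markers in the macrophage gate moved with this, at a summed 2.09 and 3.47 UMIs per 10000. In macrophages with no fibroblast-marker UMI there were 1 and 4 UMIs of Pdgfrb, a ratio of 2.94 (-0.40 to 8.56). The part of fibroblast RNA in the Pdgfrb of cancer cells and macrophages was not tested.

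Pdgfrl (ENSMUSG00000031595, chr8:40926212-40990785, plus strand) encodes a protein that resembles the outer part of PDGFRβ and has no kinase. It was a fibroblast transcript, with 82 UMIs in 39 of 118 cells of sGC Ctr, or 32.2 CPM (25.6 to 40.0), and 61 UMIs in 29 of 221 cells of sGC ∆PC, or 30.8 CPM (23.5 to 39.5), a log2 ratio of -0.07 (-0.57 to 0.43). Of the fibroblasts with Pdgfrl, 37 of 39 and 25 of 29 also had Pdgfra, and 4 of 7 and 4 of 5 after thinning, where Pdgfra was in 44.6% and 37.5% of all fibroblasts. ECs, granulocytes and T cells had 0 UMIs in both libraries, which in ECs allows up to 2.20 and 2.98 CPM. In sGC Ctr Pdgfrl went up with adventitial-like genes, from 15.6 CPM (8 UMIs) to 47.7 CPM (29 UMIs), a difference of 1.61 (0.45 to 2.95). In sGC ∆PC it stood at 23.7 CPM, on only 2 UMIs, and 38.5 CPM, a difference of 0.70 (-1.27 to 3.80) that includes 0. Fibroblast markers rose along this list, as given for Pdgfra, and their part was not tested.

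Macrophages of sGC ∆PC held 23 UMIs of Pdgfrl in 18 cells, or 1.08 CPM, against 4 UMIs in 4 cells of sGC Ctr, or 0.17 CPM, a log2 ratio of 2.70 (1.15 to 4.69). All 23 UMIs lay in the 2298 macrophages with a fibroblast-marker UMI and 0 in the 313 without one. The 313 were fewer and shallower, at a median of 1880 UMIs against 6933.5, so the 0 cannot set the groups apart. The 18 cells had a median of 3.63 fibroblast-marker UMIs per 10000, against 3.67 in the other sGC ∆PC macrophages, and were deeper, at a median of 15416 UMIs against 5367. The part of fibroblast RNA in these UMIs was not tested.

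Pairs of members were also counted in single cells. In pericytes Pdgfa and Pdgfrb shared 27 of 31 cells in sGC Ctr and 16 of 29 in sGC ∆PC, and 17 of 31 and 3 of 19 after thinning. Pdgfa was then in 73.9% and 21.4% of the pericytes with Pdgfrb and in 62.5% and 60% of those without it. These shares rest on few cells and go opposite ways in the libraries. In cancer cells Pdgfa and Pdgfra shared 2669 of 6578 and 2063 of 10188 cells, but after thinning 3.66% and 3.35% of the cells with Pdgfa had Pdgfra, against 4.30% and 3.28% of those without it. In macrophages the ligand Pdgfa was found in 20.5% and 18.0% of thinned cells with the ligand Pdgfb and in 13.3% and 12.01% of those without it.

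Other genes of the pathway, 33 in a list of processing enzymes, co-receptors and retention, and signal transduction, had 1 ratio past 2-fold in all 5 classes. Of all genes counted, 1.42% passed 2-fold in ECs, 2.68% in pericytes, 2.08% in fibroblasts, 3.75% in cancer cells and 1.38% in macrophages. At these shares the counts below do not set the list apart from other genes. In ECs 23 of the 33 had 50 or more UMIs, and 0 passed 2-fold in either direction, with a median log2 ratio of -0.09. In pericytes it was 0 of 10, with a median of -0.38 beside -0.07 for all genes counted, and in fibroblasts 0 of 29, with a median of 0.05 beside -0.02. Sparc and Pik3r1 were chosen after their values were seen. Sparc, a matrix protein that binds PDGF-B, was lower in sGC ∆PC in all 3, with log2 ratios of -0.35 (-0.39 to -0.30) in ECs, -0.64 (-0.74 to -0.54) in pericytes and -0.37 (-0.40 to -0.34) in fibroblasts. It was at -0.03 (-0.05 to -0.02) in cancer cells and higher in sGC ∆PC macrophages, at 0.68 (0.52 to 0.85). The Sparc level was only 22.0 and 35.3 CPM in macrophages, against 12074 and 9346 CPM in fibroblasts (sGC Ctr first). Pik3r1, the regulatory subunit of the PI3-kinase that docks on the receptors, was at -0.96 (-1.47 to -0.46) in ECs and -0.70 (-1.21 to -0.20) in fibroblasts, and at 0.28 (-0.42 to 0.96) in pericytes. In cancer cells 0 of 32 passed 2-fold, with a median of 0.04, and in macrophages 1 of 30 did, with a median of 0.05, which was Plat, also outside the rule for named genes in this class, a protease that can activate PDGF-C, at 1.20 and 3.14 CPM (29 and 67 UMIs), a log2 ratio of 1.39 (0.74 to 2.07). Its level was highest in fibroblasts, at 205 and 226 CPM, and pericytes, at 191 and 208 CPM, and fibroblast markers in the macrophage gate were higher in sGC ∆PC as given above. The part of fibroblast RNA in the Sparc and the Plat of macrophages was not tested.

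The genes whose levels went most like each member over the 18 points (9 classes in 2 libraries, the smaller ones of few cells) were found among 12313 genes outside the marker lists with at least 500 UMIs. They are a description, since the points share libraries and depth. For Pdgfrb they were Ednra (r = 0.96), Syde2 (0.96) and S1pr3 (0.95), where Ednra and S1pr3 are receptors of endothelin and of sphingosine-1-phosphate. For Pdgfra they were Islr (0.94), B3gnt9 (0.93) and Krt19 (0.92), and for Pdgfrl Gfpt2 (0.98), Loxl1 (0.98) and Prelp (0.97), the last pair a collagen and elastin crosslinking enzyme and a matrix proteoglycan. For Pdgfb they were Gnai2 (0.91), Msn (0.87) and Atp1b3 (0.86), for Pdgfd Mgll (0.99), Jam2 (0.96) and Slc35g2 (0.95), for Pdgfa Kif2c (0.89), Tmem205 (0.83) and Chml (0.83), and for Pdgfc Olfr889 (0.95), Tsix (0.91) and Tlcd1 (0.89). Pdgfd and Pdgfrl themselves had fewer than 500 UMIs, so their high r values rest on few UMIs. For Pdgfd these were mainly the 32 and 26 UMIs of ECs.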

How the data were processed

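The authors ran Cell Ranger 6.1.1 against mm10, per the submitters' processing notes, and deposited UMI counts per gene and called barcode for 2 libraries, which entered here without rescaling. A cell needed less than 10% mitochondrial UMIs, and log UMIs and log genes no more than 3 median absolute deviations from the median of its library. For 9 classes the UMIs of a marker list per 10000 were summed, with thresholds of 20 (EC), 20 (pericyte), 50 (fibroblast), 8 (cancer), 30 (macrophage), 50 (granulocyte), 15 (T cell), 10 (NK) and 8 (dendritic), and 3 markers found (2 for cancer). A gated cell held no other class at its limit (8, 8, 50, 3, 8, 20, 5, 4 and 4 in that order) with 2 or more UMIs. This also removed droplets of mixed classes, and no doublet caller was run. Thresholds were set after the distributions had been seen, and the members and gene lists were chosen with earlier results of these data known.

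Levels are summed UMIs per 1000000 (CPM). Intervals at 95% are exact Poisson for CPM, exact binomial for shares and exact conditional for ratios. They cover counting error only, and 3 counts are the upper limit for 0 UMIs. The background took genes of 50 or more UMIs over the libraries, with 0.5 UMIs added, and counted ratios past 2-fold. Thinning drew 2000 UMIs a cell at random. Cells in the lowest and highest 25% were ranked by the summed level of a list. By rule the text names the 7 members, the 3 genes most like each by Pearson r of log2(CPM + 1), and pathway genes past 2-fold in ECs, pericytes or fibroblasts. Alternatives changed cell filters, gates, other-class RNA, depth, scaling and cell weights, or took Leiden clusters of both libraries together (3000 variable genes, 20 components, 15 neighbors, resolution 1). Only the ratio, its interval and the count past 2-fold were checked on simulated counts. Cell filters, gates, limits on other classes, thinning, ranking by gene lists and Leiden clusters were not tested in this way. Python 3.11.15, numpy 2.4.6, scipy 1.17.1, pandas 2.3.3, scanpy 1.11.5 and igraph 0.11.9 were used. Gene positions come from a GENCODE annotation of mm10. Cell labels of the authors were not used here.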

Additional observations from a re-analysis of the deposited data

Results flagged for a closer look

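Members differed between classes in the direction of their ratio, with intervals that exclude 0 on opposite sides, and the difference between classes was not tested. Pdgfa had a log2 ratio of 0.14 in cancer cells and -0.16 in macrophages. Pdgfra had 0.29 in fibroblasts and -0.10 in cancer cells, and 0.46 (0.05 to 0.88, on 92 and 112 UMIs) in macrophages. These directions did not hold in every setting: per gate-marker UMI Pdgfa in macrophages was at 0.12 (0.03 to 0.21), with gate thresholds at 2 times Pdgfra in cancer cells was at 0.069, and over Leiden clusters Pdgfra was at -0.69 in fibroblasts and -0.11 in macrophages. Droplets past both the cancer and the fibroblast gates, 369 in sGC Ctr and 704 in sGC ∆PC, entered no class: Pdgfra stood there at 53.0 and 51.3 CPM and Pdgfrb at 9.87 and 11.5 CPM, between the levels of the 2 classes and above the 0.19 and 0.21 CPM that a count of 0 allows.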

How the results depend on the processing

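For 8 main ratios 98 of 127 alternative values stayed within the main 95% interval, and 17, in 7 of the 8, had the other sign. Outside the interval were the following, whose cause was not tested. With droplets of other classes kept, Pdgfb in ECs was 0.25, Pdgfa and Pdgfrb in pericytes -0.68 and -0.45, Pdgfra in fibroblasts 0.029 and Pdgfb in macrophages -0.17. Over Leiden clusters these were -0.92, -0.77, -0.62, -0.69 and -0.20, and Pdgfrb in fibroblasts -0.71. The EC, pericyte and fibroblast clusters were mixed: 100 of 175, 60 of 96 and 296 of 461 of their gated cells were of the class. Clustering of sGC ∆PC alone gave no EC or pericyte cluster. Thinned to 2000 UMIs, Pdgfb was 0.071 in ECs and -0.23 in macrophages, Pdgfa -1.08 in pericytes, Pdgfra and Pdgfrb -0.12 and 0.21 in fibroblasts and Pdgfc -0.15 in macrophages. With cells weighted equally, Pdgfb was 0.31 in ECs and -0.47 in macrophages, Pdgfa and Pdgfrb -0.57 and -0.20 in pericytes, Pdgfra -0.44 in fibroblasts and Pdgfc 0.59 in macrophages. With the cancer-marker limit at 0.5 times, Pdgfrb was -0.22 in pericytes and Pdgfb 0.033 in macrophages. With gate thresholds at 2 times, which also moved the fibroblast limit as it equals that threshold, Pdgfa in cancer cells was 0.054. Per gate-marker UMI, an alternative chosen after seeing the data, Pdgfra in fibroblasts was 0.48, Pdgfa in cancer cells 0.20 and Pdgfb in macrophages 0.24. Other alternatives chosen after seeing the data were cells of 2000 or more UMIs, other classes by level alone, leaving out shared barcodes or the cell of most member UMIs, and cells without markers of another class. Of 10 other ratios 28 of 155 alternative values lay outside the interval; Pdgfb in cancer cells stayed between 0.92 and 1.85. No paired analysis was possible because each condition has 1 library. Depth limits Pdgfd and every member in NK cells and dendritic cells, which had 6 to 11 cells a library.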
